A study of Mus musculus with 23 samples.

Results

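The interferon-inducible GTPases followed here are Tgtp1, Tgtp2, Ifi47, Iigp1, Irgm1, Irgm2, Igtp, Gbp2, Gbp3 and Gbp7, 10 of the 13572 gene rows of the deposited count table, taken by gene name. They were measured in CD103+ type 1 conventional dendritic cells (cDC1), the dendritic cell subset that presents tumour antigen to CD8 T cells, sorted from melanomas of wild-type C57BL/6 mice. In one group, 4 mice carried BRAFV600E melanomas whose cancer cells were Ptgs1/Ptgs2 KO (KO tumours below), that is, without both cyclooxygenase genes needed to make prostaglandin E2. In the control group, 4 mice carried the BRAFV600E melanoma with both genes. Each mouse had been given 2000000 cancer cells under the skin, and tumours were taken 6 days later. The hosts of both groups keep their own Ptgs1 and Ptgs2, and neither the age of the mice nor the number of clones behind the KO line is given in the sources used here. Sequencing used Smart-seq3, which reads RNA from very few cells, on pools of 10 cells sorted as CD45+ MHC-II+ CD11c+ CD103+ CD11b-. There were 11 pools from KO tumours and 12 from control tumours, up to 3 per mouse (2 from KO mouse 2), and the pools of a mouse were summed, so that n is 4 mice per group.

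These genes encode large GTPases that interferons switch on and that act against microbes living inside cells. Immunity-related GTPases of the GKS kind (Tgtp1, Tgtp2, Ifi47 and Iigp1), named after 3 residues of their nucleotide-binding loop, coat and break the vacuoles of parasites such as Toxoplasma. The GMS kind (Irgm1, Irgm2 and Igtp, also called Irgm3) sits on the membranes of the cell itself and holds the GKS proteins inactive there. Guanylate-binding proteins (Gbp2, Gbp3 and Gbp7) assemble on vacuoles and on bacteria and help inflammasomes sense them. Interferon gamma is the main inducer in the mouse. It signals through its receptor and the kinases Jak1 and Jak2 to promoter sites called GAS elements, while Irf1 and the type I interferon complex with Stat2 and Irf9 bind interferon-stimulated response elements (ISRE).

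All 10 genes are protein-coding, and 9 of them lie in 3 clusters of the mouse genome (GRCm38, GENCODE M21). On chromosome 11, Irgm1 (48861968 to 48871683), Tgtp1 (48985327 to 48994172), Tgtp2 (49057194 to 49064206) and Ifi47 (49076587 to 49096974) follow one another, the first 3 on the minus strand and Ifi47 on the plus strand. Further along chromosome 11, Igtp (58199556 to 58207591) overlaps the annotated span of Irgm2 (58199618 to 58222782) and shares exon sequence with it on the same strand, so reads from the shared part cannot be assigned to one of them. Gbp7 (142530342 to 142550149), Gbp3 (142560026 to 142573209) and Gbp2 (142620602 to 142638008) stand side by side on the plus strand of chromosome 3. Iigp1 lies apart from these clusters. The coding sequences of Tgtp1 and Tgtp2 have 1245 bases each and differ at 4 of them, and 79.4% of the 50-base stretches of Tgtp1 transcripts recur in Tgtp2 transcripts. The counts of this pair are therefore uncertain individually, and their sum is given beside them. Igtp and Irgm2 share 11.8% of the 50-base stretches of Igtp, and Gbp3 and Gbp7 share 3.75% of those of Gbp3.

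Promoter stretches are shown because the genes are known as one interferon-induced family and several of these stretches are nearly the same. Start sites and sequences are those of RefSeq (GRCm38.p6), which has an entry for 9 of the 10 genes and 10 start sites. Each window was searched from 250 bases before to 50 bases after the start on both strands for an ISRE core (GAAA, any 2 bases, GAAA) and for a GAS element (TTC, any 3 bases, GAA). The 30 bases below are written 5′ to 3′ in the direction of the gene, with ISRE cores and any GAS element within 12 bases of one in capitals. In the 3 guanylate-binding protein genes the core lies on the opposite strand and is read as TTTC, any 2 bases, TTTC. In Irgm1 and Gbp3 a pair of cores overlap.
Tgtp1: ccatTTCCAGGAAtcGAAACTGAAAcctac
Tgtp2: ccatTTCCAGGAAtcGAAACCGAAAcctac
Igtp: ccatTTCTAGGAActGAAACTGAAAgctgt
Irgm2: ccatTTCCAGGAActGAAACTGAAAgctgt
Irgm1: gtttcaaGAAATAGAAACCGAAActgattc
Gbp2: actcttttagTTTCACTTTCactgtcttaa
Gbp3: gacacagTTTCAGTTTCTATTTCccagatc
Gbp7: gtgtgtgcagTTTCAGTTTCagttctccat
The windows lie at chr11:48992309-48992338 (Tgtp1, minus strand), chr11:49064268-49064297 (Tgtp2, minus strand), chr11:58199507-58199536 (Igtp, plus strand), chr11:58214898-58214927 (Irgm2, plus strand), chr11:48871428-48871457 (Irgm1, minus strand), chr3:142620594-142620623 (Gbp2, plus strand), chr3:142559992-142560021 (Gbp3, plus strand) and chr3:142530273-142530302 (Gbp7, plus strand).

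An ISRE core was found at 8 of the 9 genes with an entry, against 3.44% of the 32851 RefSeq start sites searched in the same way. A GAS element was found at 5 of the 9, against 8.3% of all start sites. In Tgtp1, Tgtp2, Igtp and Irgm2 a GAS element stood within 12 bases of an ISRE core, an arrangement present at 43 of all start sites (0.131%). The windows of Tgtp1 and Tgtp2 differed at 1 of 30 bases, and those of Igtp and Irgm2 also at 1. In Gbp7 the GAS matches were farther upstream, the first of them from base −106 to base −98. Neither element was found around the RefSeq start of Ifi47, which says only that these letters are not in that window. A match is a description of the sequence and does not show that a factor binds.

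The libraries from KO tumours held between 34088 and 98554 counts and those from control tumours between 25571 and 57523. Summed per mouse, 1 count was worth between 5.10 and 11.9 CPM (counts scaled to a common total, with TMM factors over the tested genes), so a value under about 3 counts, 15.3 to 35.6 CPM, is at the limit of detection. All 14 genes of a cDC1 marker list were detected in both groups, with summed levels of 6588 to 9668 CPM in mice with KO tumours and 3562 to 6253 CPM in mice with control tumours. This sum was higher in every KO mouse than in every control mouse, and the part of cDC1 content in the results was not tested. Markers of other cells were unevenly spread. The macrophage list (10 genes) had 83 counts in the KO group and 323 in the control group, with 99.1 to 225 CPM and 90.3 to 1262 CPM per mouse, and C1qb was at 0 in the KO group. The plasmacytoid dendritic cell (pDC) list (8 genes) had 166 and 308 counts, with 239 to 424 CPM and 184 to 1385 CPM, and Siglech, Ly6d, Klk1 and Cox6a2 were at 0 in the KO group. Bst2, also on the list of type I interferon targets, made up 131 and 68 of these counts. The defining pDC genes used below to mark pools had 1 count in the KO group and 108 in the control group. The T cell list (10 of its 11 genes have a row) had 67 counts in the KO group and 15 in the control group, with 0 to 256 CPM and 0 to 138 CPM. Cd4 was at 0 in both groups, and Trbc1 and Cd8a were at 0 in the control group. The cDC2 list (7 of its 8 genes have a row) had 42 counts in the KO group and 168 in the control group, with 39.0 to 178 CPM and 231 to 635 CPM per mouse, so its groups did not overlap, and Clec4a4 was at 0 in the KO group. The part of cDC2 in the results was not tested, and their markers were not used to mark pools below. In these bulk pools, fewer cells that express a gene and less RNA per cell cannot be told apart.

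The summed level of the 10 genes, which was not tested, was higher in the sorted cells from KO tumours. It was 1520, 1507, 699 and 768 CPM in the mice with KO tumours 1 to 4, against 541, 103, 351 and 604 CPM in the mice with control tumours 1 to 4. Every mouse with a KO tumour was thus above every mouse with a control tumour, although the gap between the lowest of the first and the highest of the second was small. The genes were chosen with earlier results of these data known, so nothing is read from a separation of their sums, whole or by class. The sums rest on 513 counts in the KO group and 171 in the control group. The GKS genes made up most of the difference, with summed levels of 705 ± 345 CPM in the KO group and 162 ± 75.1 CPM in the control group (mean ± SD, n = 4 each). The groups did not overlap for this class. The GMS genes reached 207 ± 32.1 CPM in the KO group and 96.8 ± 81.0 CPM in the control group, and the guanylate-binding proteins 212 ± 99.3 and 140 ± 153 CPM, both with overlapping groups.

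**Figure D1:**
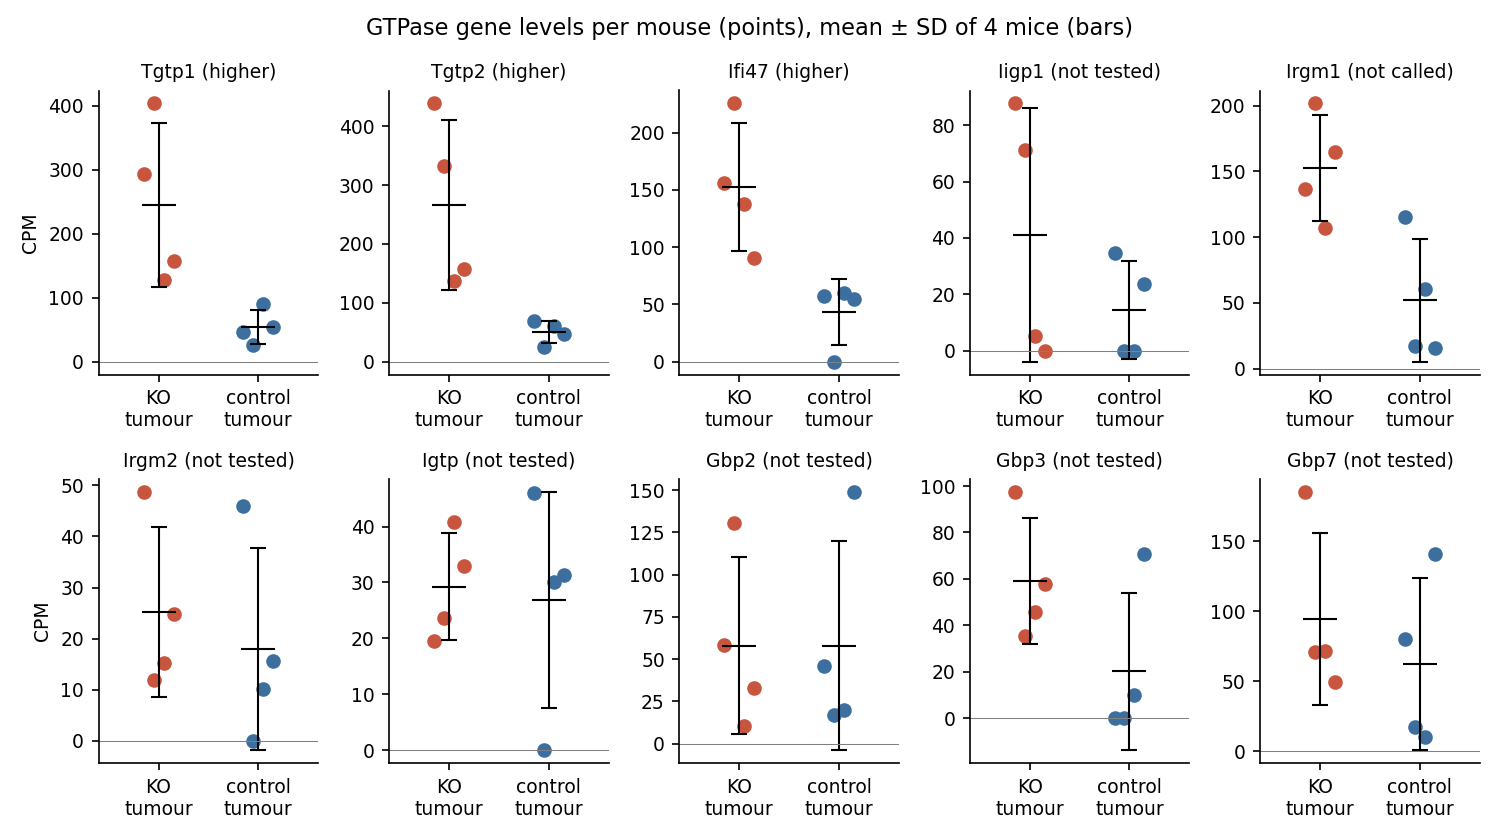
Level of each GTPase gene in CPM (vertical axis, a separate scale per gene) in mice with KO tumours (left, red) and control tumours (right, blue). Points are single mice and bars the mean ± SD of 4 mice. The groups are apart for Tgtp1, Tgtp2 and Ifi47 and overlap for the other 7 genes. All 4 KO mice lay above all 4 control mice for 4.91% of all tested genes. For Tgtp2 and Ifi47 passing the count filter in the KO mice alone already fixed this, so nothing is read from the count.

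Of the 10 genes, 4 had enough counts to be tested among 2076 genes (edgeR quasi-likelihood test on mouse sums, adjusted over all tested genes, threshold 0.05), and 3 of these rose and none fell. In the same test 2.70% of all tested genes were called higher, 2.26% lower and 4.96% in either direction. Reads of Tgtp1 and Tgtp2 can hardly be told apart, and counted as 1 gene they left 2 called higher, the pair and Ifi47. With upper quartile scaling, 45 genes were higher and 67 lower, and with total counts alone 70 and 24, where the TMM-scaled fit gave 56 and 47. The filter asked for at least 71.9 CPM of unscaled totals in 4 mice. Tgtp2 and Ifi47 passed it in 4 mice of the KO group and in no control mouse, and Tgtp1 and Irgm1 in 4 and 1, so these 4 entered the test mainly through the group in which they were high. Neither the count of 3 called genes nor the positive fold change of 4 of 4 tested genes is therefore evidence of its own. The genes were also chosen with earlier results of these data known. All 4 KO mice lay above all 4 control mice for 3 of the 4 tested members and for 4.91% of all tested genes. For Tgtp2 and Ifi47 passing the filter in the KO mice alone already fixed this, so nothing is read from that count.

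Tgtp2, a GKS effector also known as Irgb6 together with its neighbour, had the largest change among the 4 tested genes. It stood at 439, 332, 138 and 157 CPM in mice 1 to 4 with KO tumours, against 69.0, 25.8, 60.2 and 47.0 CPM in mice 1 to 4 with control tumours. KO mice 1 and 2 were far above KO mice 3 and 4. The means were 266 ± 144 CPM in the KO group and 50.5 ± 18.8 CPM in the control group, a log2 fold change of 2.36 ± 0.44 (SE; adjusted p = 0.0035). The change held in each of the 21 alternative fits that tested it (1.91 to 3.23, adjusted p from 1.09e-06 to 0.02).

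Tgtp1, its near-identical neighbour, had 292, 403, 128 and 157 CPM in the KO group and 46.0, 25.8, 90.3 and 54.9 CPM in the control group. Again KO mice 1 and 2 were highest, and control mouse 3 came closest to the KO group. Its log2 fold change was 2.10 ± 0.44 (adjusted p = 0.00851) and it was called in all 20 alternative fits that tested it (1.78 to 3.77). Because reads of the pair can hardly be told apart, the sum is the firmer value, with 511 ± 257 CPM in the KO group and 105 ± 41.0 CPM in the control group. Counted as 1 gene, the pair was higher by 2.26 ± 0.38 on the log2 scale (adjusted p = 0.00142). Over the 23 pools the paired genes rose and fell together (Pearson r = 0.86 between log2 CPM centred on the group means).

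Ifi47, the GKS protein also called Irgd, had 156, 225, 138 and 90.8 CPM in the KO group and 57.5, 0, 60.2 and 54.9 CPM in the control group. Control mouse 2 had no count of it, which allows up to 25.8 CPM (3 counts, counting error only). The log2 fold change was 1.79 ± 0.50 (adjusted p = 0.0448), close to the threshold. When each mouse was left out in turn, the change ran from 1.35 to 1.99 and the adjusted p from 0.0495 to 0.108, and the call was kept only without KO mouse 4. It was also lost with a minimum of 50 counts (adjusted p = 0.051), with mouse number as a block (adjusted p = 0.0882) and without pools holding markers of other cells (adjusted p = 0.0956), so it was called in 10 of 20 alternative fits.

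Iigp1 (Irga6), a GKS protein, lies on the plus strand of chromosome 18 (60376027 to 60392634) and was rare and uneven. It had 87.7, 71.2, 5.10 and 0 CPM in the KO group and 34.5, 0, 0 and 23.5 CPM in the control group. Of its 16 counts in the KO group, 8 came from a single pool of KO mouse 1, and 6 counts were found in the control group. It failed the count filter, and in a fit without filter, where 0.826% of 13311 genes were called higher, its log2 fold change was 1.26 ± 0.84 (adjusted p = 0.637).

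Irgm1, the regulator that loss-of-function studies in mice tie to survival of activated lymphocytes and macrophages, was the only GMS gene with enough counts. It had 136, 202, 107 and 165 CPM in the KO group and 115, 17.2, 60.2 and 15.7 CPM in the control group. Control mouse 1 lay inside the KO range, and the other control mice were well below it. The log2 fold change was 1.61 ± 0.48, just short of the threshold (adjusted p = 0.0536). It was called in 6 of 22 alternative fits, among them the fit without control mouse 1 (2.28, adjusted p = 0.0109) and the fit without count filter (1.59, adjusted p = 0.0242).

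Igtp and Irgm2 had too few counts to test. Igtp had 19.5, 23.7, 40.8 and 33.0 CPM in the KO group and 46.0, 0, 30.1 and 31.4 CPM in the control group, so its groups lay on top of each other. Irgm2 had 48.7, 11.9, 15.3 and 24.8 CPM in the KO group and 46.0, 0, 10.0 and 15.7 CPM in the control group. Without filter their log2 fold changes were 0.22 ± 0.73 and 0.51 ± 0.87 (adjusted p of 0.959 and 0.911). All values of Irgm2 are 0 to 5 counts, so a difference was not detectable at this depth.

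The guanylate-binding proteins did not separate the groups. Gbp2, which is recruited to vacuoles of parasites, averaged 58.0 ± 52.2 CPM in the KO group and 58.1 ± 62.0 CPM in the control group (n = 4 each). Its highest single value, 149 CPM, was in control mouse 4, followed by 131 CPM in KO mouse 2. Gbp7 averaged 94.3 ± 61.4 CPM in the KO group and 62.2 ± 61.4 CPM in the control group, again with control mouse 4 (141 CPM) inside the KO range. Gbp3 was the one with the clearest lean, at 97.5, 35.6, 45.9 and 57.8 CPM in the KO group and 0, 0, 10.0 and 70.6 CPM in the control group. Without filter the log2 fold changes were −0.30 ± 0.53 for Gbp2, 1.31 ± 0.64 for Gbp3 and 0.49 ± 0.46 for Gbp7 (adjusted p of 0.912, 0.503 and 0.784). Control mouse 4 held 46 of the 65 control counts of these 3 genes and also 72 of the 123 macrophage counts and 42 of the 108 pDC counts (defining genes) of its group. The part of other cells in the Gbp levels was not tested.

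**Figure D2:**
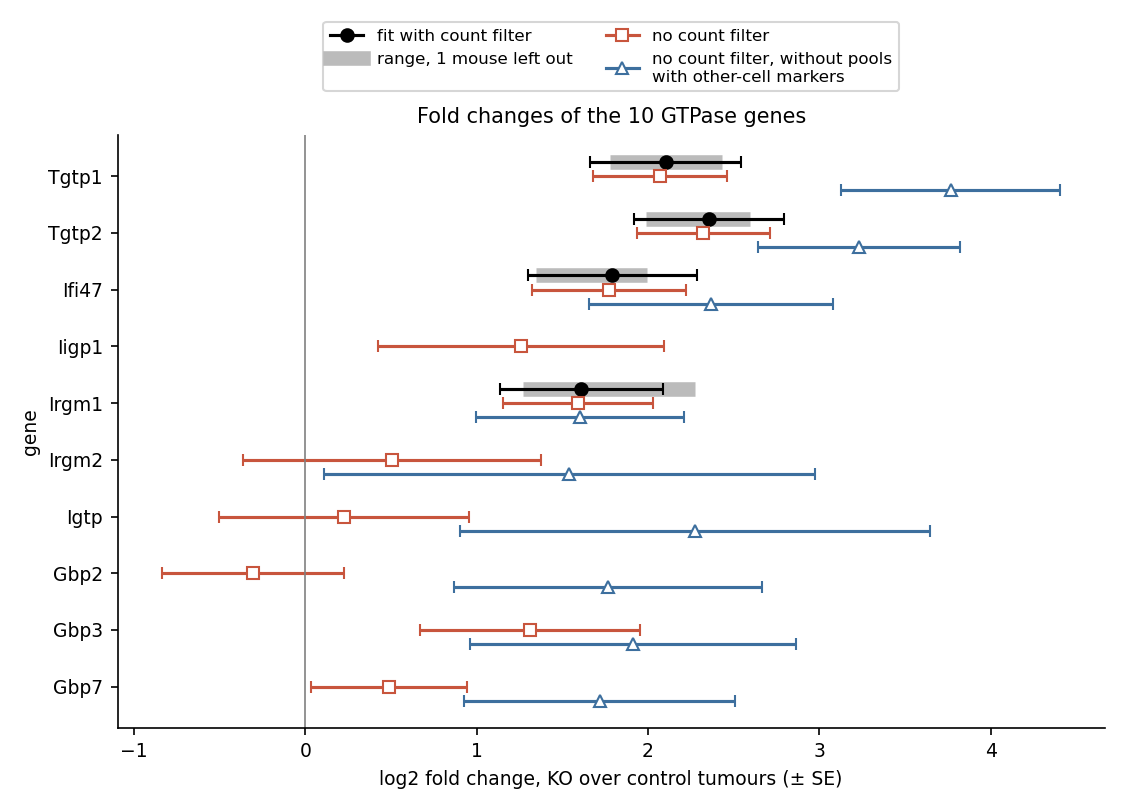
Log2 fold change of KO over control tumours (horizontal axis, ± SE) for each gene. Black circles are the fit with the count filter, grey bars its range when 1 mouse is left out, red squares the fit without filter, and blue triangles the fit without filter after removal of pools with 10 or more other-cell marker counts (no triangle for Iigp1, which has no control count there). Tgtp1 and Tgtp2 lie to the right of 1.7 in all of them, and Gbp2 lies at 1.77 as a triangle and at −0.30 as a square.

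Per kilobase of annotated exon, a scale that suits counts of reads but not of molecules (which of them was counted is not given), Tgtp2 (90.6 ± 49.1 CPM per kb), Tgtp1 (76.5 ± 39.8) and Ifi47 (61.7 ± 22.6) came first in cDC1 from KO tumours. Irgm1 (26.3 ± 6.95), Gbp2 (23.1 ± 20.7), Gbp3 (18.1 ± 8.29), Gbp7 (16.8 ± 10.9) and Igtp (14.5 ± 4.73) followed, and Iigp1 (7.04 ± 7.72) and Irgm2 (6.82 ± 4.51) were last. Within each of these sets the means of neighbours lay closer than their SD. In control tumours Gbp2 had the highest mean (23.1 ± 24.6 CPM per kb), ahead of Ifi47 (17.5 ± 11.7), Tgtp2 (17.2 ± 6.39) and Tgtp1 (16.9 ± 8.41), none of which differed from the next beyond its spread. By CPM without length the highest mean there was that of Gbp7 (62.2 CPM), ahead of Gbp2 (58.1 CPM). Iigp1 was lowest in control tumours, at 2.49 ± 2.98 CPM per kb.

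Single pools showed how unevenly the genes were spread. A pool from a KO tumour held 14 to 106 counts of the 10 genes (median 37) with 3 to 10 of them detected (median 8), and a pool from a control tumour held 0 to 35 counts (median 8.5) with 0 to 10 detected (median 4.5). Tgtp2 was found in 11 of 11 KO pools (1 to 37 counts, median 9) and in 7 of 12 control pools (0 to 6 counts, median 1). Tgtp1 was found in 11 KO pools (2 to 25 counts, median 7) and in 8 control pools (0 to 9 counts, median 1.5). Ifi47 was found in 10 KO pools (0 to 14 counts, median 6) and in 6 control pools (0 to 5 counts, median 0.5). The groups of pools overlapped for each of these genes, with control mouse 3 giving the richest control pool of all of them (9 counts of Tgtp1, 6 of Tgtp2 and 5 of Ifi47). The richest pool, the second of KO mouse 1, contributed 106 of the 513 counts of its group. Without it Tgtp1 (1.87, adjusted p = 0.0428) and Tgtp2 (1.91, adjusted p = 0.0196) were still called, and Ifi47 was no longer tested.

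**Figure D3:**
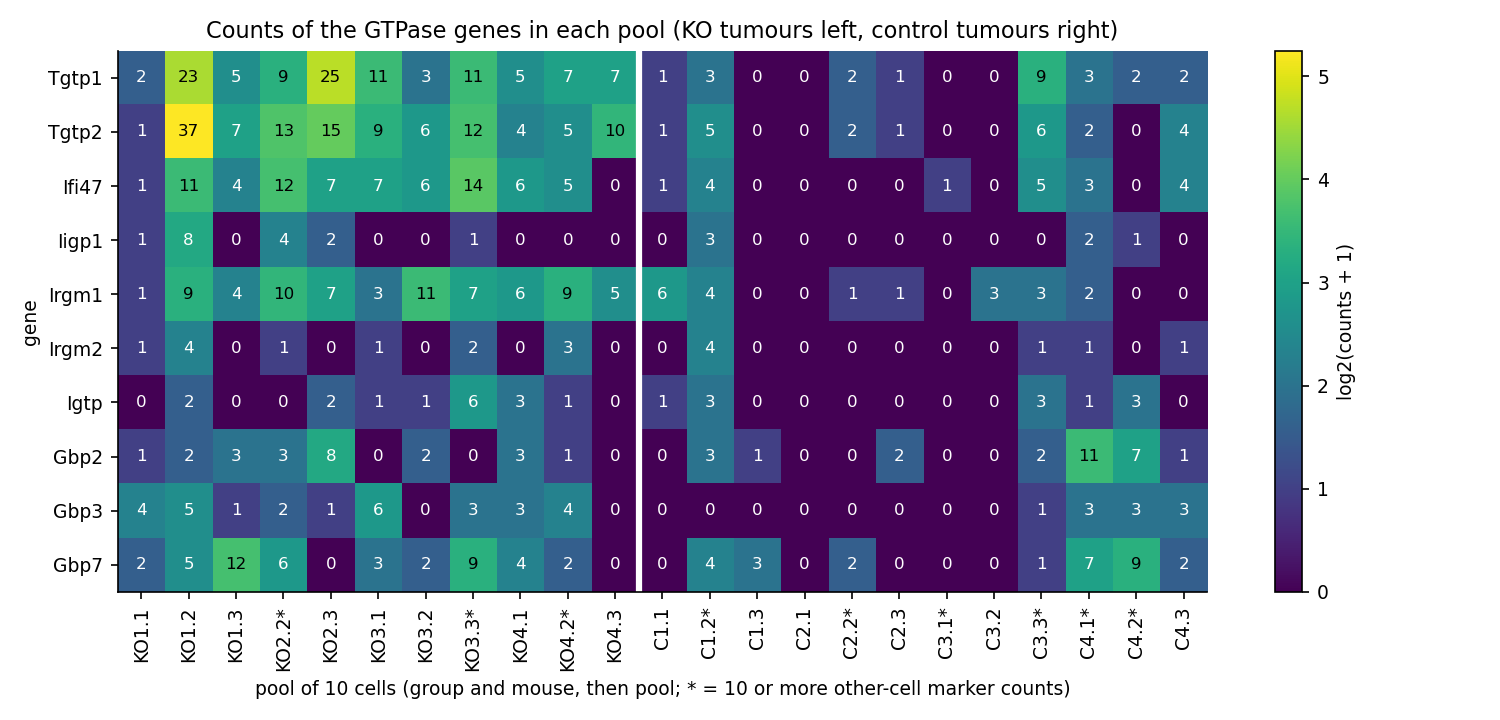
Counts of each GTPase gene (rows) in each pool of 10 cells (columns), with pools of KO tumours left and of control tumours (C) right of the white line. Numbers are counts and colour is log2(counts + 1), and an asterisk marks pools with 10 or more other-cell marker counts. Tgtp1, Tgtp2 and Irgm1 have counts in every KO pool, while control pool C2.1 has none of the 10 genes.

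Pools with markers of other cells held most of the control counts, and the part of these cells in the levels was not tested. Using 17 defining genes of macrophages, pDC and T cells, 3 KO pools and 6 control pools held 10 or more such counts. The 3 KO pools were marked by T cell genes (14, 13 and 29 counts). Of the control pools, 1 was marked by T cell genes (11 counts) and the others by macrophage or pDC genes, so the marks differed between the groups. The 6 marked control pools had 132 of the 171 control counts of the GTPase genes, or 46.2 per 100000 counts, against 15.2 per 100000 in the other 6. In the KO group the rates were 77.9 per 100000 in the 3 pools with markers and 87.3 in the 8 without. In the pools without markers the summed level ran from 511 to 2287 CPM in the KO group and from 0 to 482 CPM in the control group. In the marked pools it ran from 829 to 1477 CPM in the KO group and from 47.2 to 877 CPM in the control group. The lowest KO pool held 14 counts of the 10 genes. Pools of a mouse are technical replicates, so nothing is read from a gap between pools. After removal of the 9 marked pools none of the 10 genes passed the count filter. In a fit without filter on the remaining pools, which still cover all 8 mice, Tgtp1 (3.77 ± 0.64, adjusted p = 2.86e-06) and Tgtp2 (3.23 ± 0.59, adjusted p = 2.18e-05) were called with larger changes than before. Tgtp1 then had 81 counts in the KO group and 4 in the control group, and Tgtp2 had 89 and 6. With so few control counts the larger size of these changes is uncertain. Ifi47 (2.37 ± 0.71, adjusted p = 0.0956) was not called. Gbp2 then had 19 counts in the KO group and 4 in the control group, where all pools gave 23 and 27 (1.77 ± 0.90, adjusted p = 0.66). The 6 defining T cell genes had 0, 14, 13 and 29 counts in KO mice 1 to 4 and 11, 0, 0 and 0 counts in control mice 1 to 4.

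**Figure D4:**
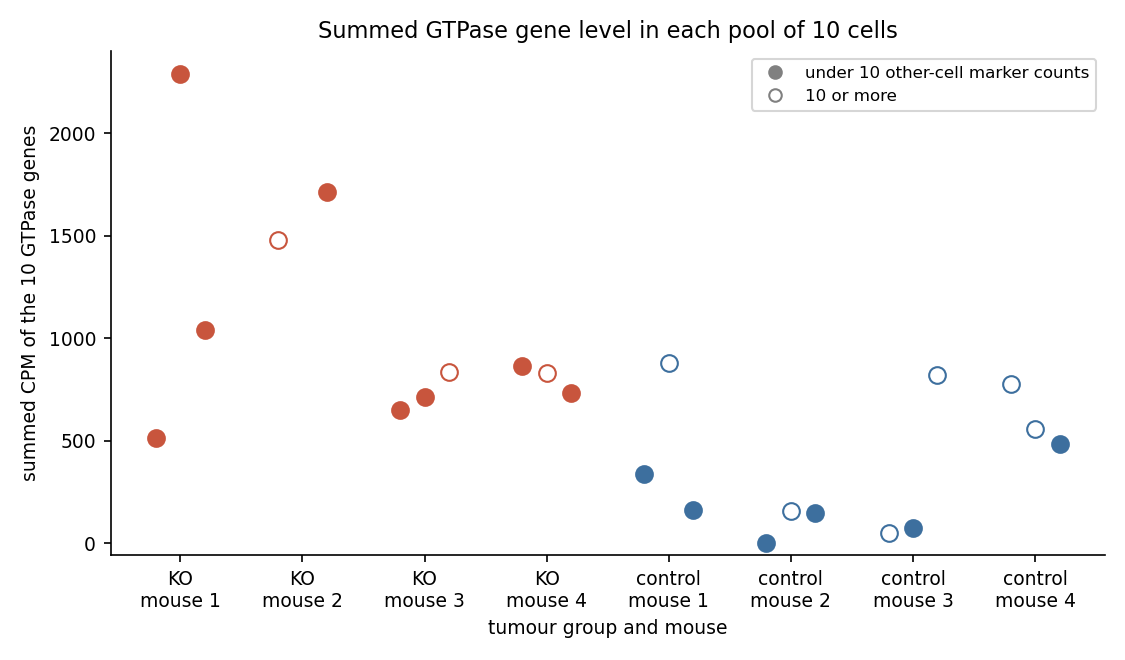
Summed CPM of the 10 GTPase genes (vertical axis) in each pool of 10 cells, by mouse, with KO tumours left and control tumours right. Open circles are pools with 10 or more counts of macrophage, pDC or T cell markers. The filled KO circles start at 511 CPM and the filled control circles end at 482 CPM. The open KO circles start at 829 CPM and the open control circles end at 877 CPM. Pools of a mouse are technical replicates.

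Related GTPases outside the 10 were mostly too rare to test. Of 22 listed, 17 had a row and 2 were tested. Gm4070, a very large interferon-inducible GTPase, rose to 446 ± 40.7 CPM in the KO group, against 212 ± 30.2 CPM in the control group, with all 4 mice above all 4 (1.07 ± 0.23, adjusted p = 0.0104). Gvin1, its close relative, was not called, with 323 ± 139 CPM in the KO group and 239 ± 66.2 CPM in the control group (0.45, adjusted p = 0.465), and reads of this family may be shared between its copies. Mx1, a dynamin-like GTPase, was picked after its values were seen. It had 97.5, 47.4, 107 and 107 CPM in the KO group and 0, 25.8, 10.0 and 15.7 CPM in the control group, and without filter its log2 fold change was 2.64 ± 0.63 (adjusted p = 0.00337). Gbp4 (15 and 17 counts) and Gbp5 (13 and 13) were as frequent in the KO as in the control group.

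Among genes of interferon gamma signalling, Irf8, a factor that also specifies cDC1, rose by 0.85 ± 0.21 on the log2 scale (adjusted p = 0.0215). Irf1 had 283, 522, 102 and 90.8 CPM in the KO group and 115, 77.4, 0 and 70.6 CPM in the control group and was not called (1.82 ± 0.59, adjusted p = 0.0795). Ifngr1, which encodes the ligand-binding receptor chain, went the other way without being called, at 117, 71.2, 97.0 and 124 CPM in the KO group and 322, 249, 161 and 149 CPM in the control group (−1.07 ± 0.32, adjusted p = 0.06). Ifngr2, the second chain, had 33 and 31 counts and was not tested, and Ifng had no row in the deposited counts. Of other interferon gamma targets 1 of 14 tested was higher (B2m, 0.87 ± 0.20, adjusted p = 0.0164) and none was lower, where 2.70% of all tested genes were higher. The median log2 fold change was 0.56, where that of all tested genes was 0.01. Tap2 and Ifi35 each passed the filter in 3 KO mice and 1 control mouse, so this median is no evidence of its own.

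Of 30 type I interferon targets outside the GTPases with a row, 11 were tested. Of these, 7 were higher and none was lower, with a median log2 fold change of 1.21, where 2.70% of all tested genes were higher. Zbp1 passed the filter in 4 KO mice and no control mouse, Phf11b in 4 and 1, and Isg15 and Ifi204 in 4 and 2. Ifi27l2a and Trim30a passed it in 4 and 4. The count, direction and median of this list are therefore no evidence of their own. Zbp1, a sensor of Z-form nucleic acid, rose to 197 ± 58.8 CPM in the KO group, against 65.2 ± 28.9 CPM in the control group (1.63 ± 0.38, adjusted p = 0.018). Trim30a, a member of a family of ubiquitin ligases, rose to 588 ± 111 CPM, against 341 ± 40.7 CPM (0.79 ± 0.21, adjusted p = 0.0406). Ifi27l2a, Isg15, Phf11b and Ifi204 were also called (log2 fold changes of 2.38, 2.58, 2.04 and 1.53). Of the type I signalling genes 4 were tested and 0 were called (2 had an unadjusted p under 0.05 in edgeR, and DESeq2 called 0). Those with the smallest p were Irf7 (1.44 ± 0.45, adjusted p = 0.0681) and Stat2 (0.88 ± 0.31, adjusted p = 0.112). No test compared these lists with the 10 genes or with one another.

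The autophagy conjugation proteins that load the GTPases onto target membranes had 5 tested genes with a median log2 fold change of 0.19, of which 0 were called (1 had an unadjusted p under 0.05 in edgeR, and DESeq2 called 0). The smallest p belonged to Sqstm1, an autophagy receptor that was higher in all 4 KO mice than in all 4 control mice (0.90 ± 0.32, adjusted p = 0.112), and to Atg3 (0.29 ± 0.27, adjusted p = 0.617). Of the inflammasome partners of the guanylate-binding proteins only Il1b, an inflammasome substrate, could be tested. It fell to 721 ± 88.2 CPM in the KO group, against 2097 ± 500 CPM in the control group (−1.55 ± 0.18, adjusted p = 1.55e-05).

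**Figure D5:**
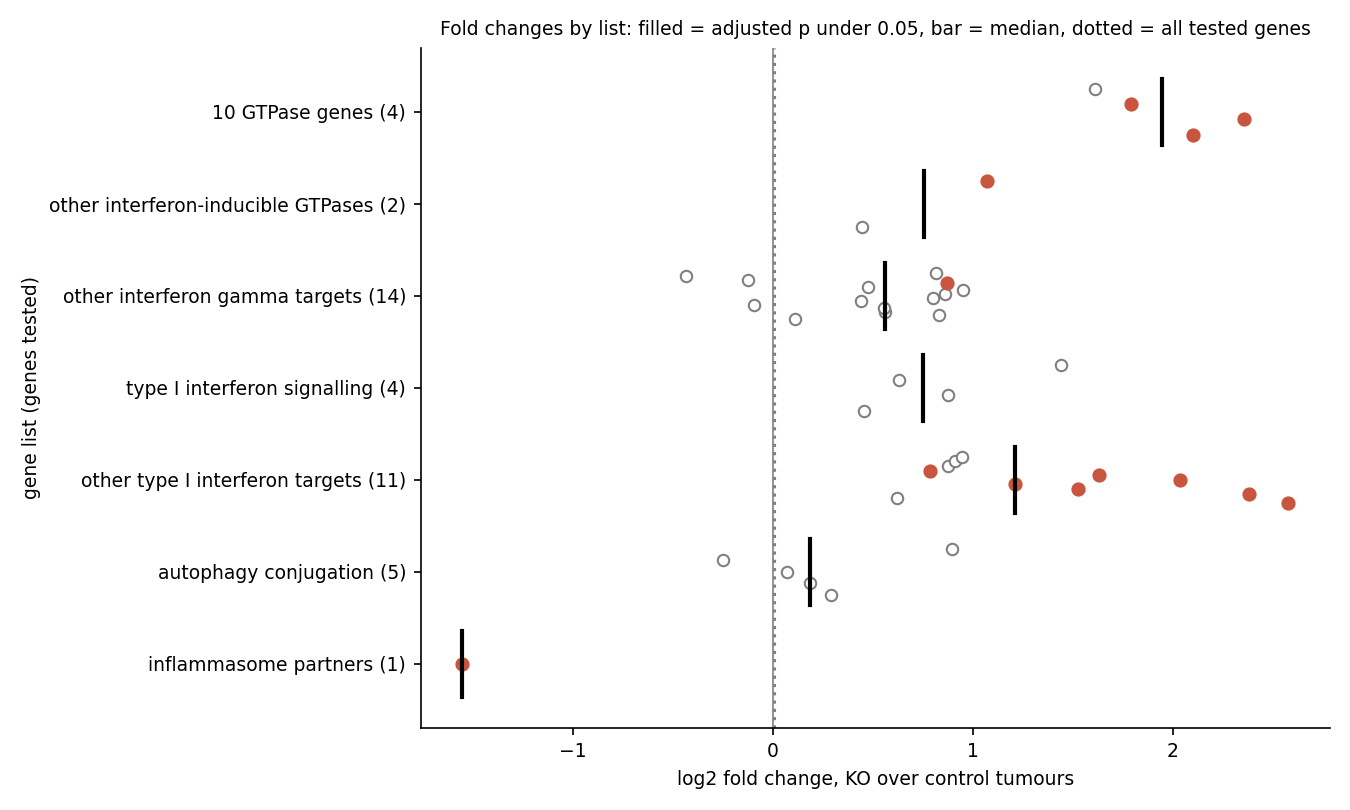
Log2 fold change of KO over control tumours (horizontal axis) of the tested genes of 7 lists (rows, number of genes in brackets; interferon gamma signalling is left out). Filled points passed an adjusted p of 0.05, the black bar is the median of a list and the dotted line that of all 2076 tested genes (0.01). The tested members lie between 1.61 and 2.36.

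The genes whose level followed the summed level of the 10 GTPase genes most closely over the 23 pools, both centred on their group means, were Fgl2 (r = 0.76), Rbms1 (0.67), Sec11a (0.65), Ankrd44 (0.64) and Psmb7 (0.62), out of 1725 candidates with a median r of 0.04. Fgl2 encodes a fibrinogen-like protein with a secreted, immune-regulating form. The likeness lay mainly in the control pools, where r was 0.80 for Fgl2 and 0.81 for Rbms1, against 0.38 and −0.23 in the KO pools. The pools share mice and differ in depth, so these values describe these pools only.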

How the data were processed

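RNA of sorted CD103+ cDC1 was measured by Smart-seq3 in 23 pools of 10 cells. The authors deposited whole-number counts per gene and library without normalization. Alignment used STAR (version 2.5.4b) and the build GRCm38 (mm10), per the submitters' processing notes. Which program, annotation and strand setting produced the counts, and whether they are reads or molecules, is not given in the sources used. Amplified reads are not independent molecules, so limits for counts of 0 cover counting error only. Mice held 101017 to 230478 counts.

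Pools of a mouse, technical replicates per the labels, were summed. For 2076 genes that passed filterByExpr (minimum count 10), edgeR 4.0.16 gave two-sided quasi-likelihood tests after TMM scaling. P-values were adjusted by Benjamini-Hochberg, with a threshold of 0.05. A standard error is the absolute fold change over the square root of F. CPM are counts over TMM-scaled totals of tested genes. For pools, CPM use unscaled totals of tested genes, and correlations use log2(CPM + 10). Exon lengths, loci and transcripts are from GENCODE M21. The test was tried on simulated data. DESeq2 1.42.0 and limma 3.58.1 served as alternatives, with R 4.3.3, Python 3.11.15, Biopython 1.88 and matplotlib 3.10.9.

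The naming rule took all 10 members, from each other list up to 6 called genes by smallest p or else the 2 with the smallest p, the genes Irf1, Ifngr1, Ifngr2 and Ifng, and the 5 genes most alike over pools. Another gene that the rule names is not reported here. Members and lists were chosen with earlier results of these data known. Other cells were counted with 17 defining genes of the macrophage, pDC and T cell lists.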

Additional observations from a re-analysis of the deposited data

Results flagged for a closer look

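In 3 of 22 groups of 4 mice (10 genes and their sum, in both tumour groups) 1 mouse stood far from the others by Dixon's test, where chance gives about 1 in 20. Gbp7 was at 185.2 CPM in KO mouse 1, while the other KO mice had 49.5 to 71.4 CPM. Ifi47 was at 0 CPM in control mouse 2, while the other control mice had 54.9 to 60.2 CPM. Gbp3 was at 70.56 CPM in control mouse 4, while the other control mice had 0 to 10.0 CPM.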

How the results depend on the processing

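No member was called lower in any fit, and the fold changes of the 4 tested members kept their sign, while that of Gbp2 without filter was −0.30 over all pools and 1.77 without marked pools. Between 2 and 4 of the 10 genes were called higher in all fits that tested any of them, with Tgtp1 and Tgtp2 called wherever tested. Leaving out 1 mouse gave 2 to 3 members, 31 to 67 higher genes and 23 to 45 lower genes. Higher genes numbered 110 without filter, 88 with at least 10 counts, 32 from technical replicates 2 and 3 and 32 without the richest pool. Lower genes numbered 24 with total counts alone, 84 without filter, 19 from technical replicates 2 and 3 and 19 without the richest pool. With the replicate block (mouse number), 45 genes were higher and 28 lower, 2 members were called, Ifi47 was not (1.77, adjusted p = 0.0882), and 1 of 4 mice correlated best with its own number. Same-numbered mice deviated with r of −0.0893 to 0.1, so they share only a number. Without the pools holding other-cell markers, 18 genes were higher and 6 lower, and 21 were lower there without filter. In limma-voom over libraries with at least 50 counts, 77 genes were lower and 4 members higher. No member passed the filter in limma-voom over libraries or without marked pools, so neither gave a count of members. The fits without the richest pool, without marked pools and filter, and limma-voom with 50 counts were chosen after seeing the data. Depth limits the 6 untested members, which had 6 to 45 counts per group.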

Other observations

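Among the KO mice, the summed level of the 10 genes was highest in mice 1 and 2. In KO mice 1 to 4 Irf1 had 283, 522, 102 and 90.8 CPM, the type I target Isg15 had 458, 522, 286 and 429 CPM and Mx1 had 97.5, 47.4, 107 and 107 CPM, so that mice 1 and 2 were also highest for Irf1 and Isg15 but not for Mx1. Mice 1 and 2 were not both highest for the other called type I targets named above, Ifi27l2a, Zbp1, Phf11b, Ifi204 and Trim30a. Ifi27l2a, for instance, had 1306, 1542, 2286 and 1387 CPM in KO mice 1 to 4. With 4 mice no correlation was computed.

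The share of the 10 genes' summed level that came from Tgtp1 and Tgtp2 was 48.1%, 48.8%, 38.0% and 40.9% in mice 1 to 4 with KO tumours and 21.3%, 50%, 42.9% and 16.9% in mice 1 to 4 with control tumours. The guanylate-binding proteins made up 15.7% to 22.4% in the KO group and 11.4% to 59.7% in the control group, the highest in control mouse 4.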
